A study of Homo sapiens with 12 samples.

Results

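The genes described here are the plasminogen activators PLAU and PLAT, the receptor PLAUR and 4 serpins, SERPINE2, SERPINB2, SERPINB5 and SERPINB8. They are 7 of the 34599 gene names on the array, and the deposited table holds 11 probes for them, of which all 11 were detected often enough to be tested. The 7 genes were chosen by their signals on these same arrays, so their levels and differences are given as a description, without a p-value, and support nothing about the group.

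Expression was measured on 12 Illumina HumanHT-12 arrays in 2 pancreatic ductal adenocarcinoma (PDAC) cell lines, MIA PaCa-2 and Capan-1. Each line was studied with a scrambled control hairpin (shCtrl) and with 2 hairpins against focal adhesion kinase (FAK, gene PTK2), sh1209 and sh1319, with 2 arrays in each of the 6 groups. All lines, controls included, carried a tetracycline-inducible pLKO.1 vector and were kept in puromycin (Capan-1 at 1.5 ug/ml, MIA PaCa-2 at 3.5 ug/ml), and per the study's methods all cells with an inducible hairpin received doxycycline (50 ng/ml, 96 hours) before RNA isolation. The labels spell the sh1319 hairpin shFAK1319 in Capan-1 and do not say whether replicate arrays came from separate cultures, so a p-value measures the spread between these arrays, which may be technical. The vector was kept by drug selection, no clone is named, and only cultured tumor cells were present, without stroma or a host.

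Plasminogen activators are serine proteases that cut plasminogen into plasmin, which degrades fibrin and several matrix proteins and activates other proteases at the cell surface. Urokinase (PLAU) acts mainly when bound to its receptor (PLAUR), tissue plasminogen activator (PLAT) acts mainly on fibrin, and inhibitory serpins trap either protease in a covalent complex. In pancreatic cancer the system is known for its part in invasion and in remodeling of the dense stroma. SERPINE2 and SERPINB2 inhibit plasminogen activators, whereas SERPINB5 (maspin) is a serpin without protease inhibitor activity and SERPINB8 is an intracellular serpin that can inhibit furin.

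The start sites of 6 of the 7 genes were examined in RefSeq promoter windows (assembly GRCh38.p14), which run from 250 bases before to 50 bases after the start and number 8 for these genes, because PLAU and SERPINE2 have more than 1. The search covered 4 motifs, read on both strands. The AP-1 motif was searched as TGANTCA, with any base at its center, a looser pattern than the usual Fos and Jun site. It was present in the windows of 4 genes, PLAUR, SERPINB2, SERPINB5 and SERPINB8, and in 7.71% of all 35116 promoters in the table. The match read TGAGTCA in PLAUR and at -28 in SERPINB8, and TGAATCA in SERPINB2, in SERPINB5 and at -185 in SERPINB8. The Sp1 motif GGGCGG was present in a window of PLAU, both windows of SERPINE2 and that of SERPINB5, and in 45% of all promoters. The TATA box TATAAA, found in 11.5% of all promoters, occurred in SERPINB2 and SERPINB8, and the ETS core ACTTCC, found in 22.8%, occurred in PLAUR. A match is a description of the letters only, and no binding was measured here. The 250 bases before the start are shown for the 4 genes with an AP-1 match and for SERPINE2, the gene with the lowest levels relative to control under both FAK hairpins, 5′ to 3′ on the strand of the gene, with every motif match in capitals.
PLAUR (chr19:43670170-43670419, minus strand): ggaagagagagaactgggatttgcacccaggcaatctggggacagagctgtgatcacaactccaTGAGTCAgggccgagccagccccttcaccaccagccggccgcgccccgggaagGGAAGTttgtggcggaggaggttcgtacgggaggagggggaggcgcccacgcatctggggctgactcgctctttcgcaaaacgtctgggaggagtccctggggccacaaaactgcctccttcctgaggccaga
SERPINB2 (chr18:63887455-63887704, plus strand): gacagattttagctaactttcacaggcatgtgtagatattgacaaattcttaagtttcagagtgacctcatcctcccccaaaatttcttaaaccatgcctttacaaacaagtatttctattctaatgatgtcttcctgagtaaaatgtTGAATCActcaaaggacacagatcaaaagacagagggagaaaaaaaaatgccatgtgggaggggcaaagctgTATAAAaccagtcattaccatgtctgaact
SERPINB5 (chr18:63476708-63476957, plus strand): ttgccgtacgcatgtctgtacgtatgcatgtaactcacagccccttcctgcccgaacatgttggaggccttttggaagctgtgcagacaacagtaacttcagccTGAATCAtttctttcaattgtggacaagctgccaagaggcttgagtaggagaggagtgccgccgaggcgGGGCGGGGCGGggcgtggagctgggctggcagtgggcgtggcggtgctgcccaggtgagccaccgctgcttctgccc
SERPINB8 (chr18:63969831-63970080, plus strand): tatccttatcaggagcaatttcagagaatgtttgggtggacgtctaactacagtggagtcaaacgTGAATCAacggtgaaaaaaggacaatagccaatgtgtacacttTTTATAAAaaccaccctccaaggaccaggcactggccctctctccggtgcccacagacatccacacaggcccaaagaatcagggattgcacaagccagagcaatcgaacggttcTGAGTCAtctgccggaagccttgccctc
SERPINE2 (chr2:224038641-224038890, minus strand): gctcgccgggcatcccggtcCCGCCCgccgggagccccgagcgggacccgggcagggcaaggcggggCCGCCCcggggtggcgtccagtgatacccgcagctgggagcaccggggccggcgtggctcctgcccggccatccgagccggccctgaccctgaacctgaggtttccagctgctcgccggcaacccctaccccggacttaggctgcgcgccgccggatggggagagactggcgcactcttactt

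Counted back from the start site, the AP-1 match began at position -186 in PLAUR, -102 in SERPINB2, -146 in SERPINB5, and -185 and -28 in SERPINB8. The TATA box of SERPINB2 lay at -30, and SERPINB8 had overlapping matches on the 2 strands at -142 and -140. The Sp1 matches of SERPINB5, at -77 and -72, share 1 base, and those in the SERPINE2 window shown lay at -230 and -183. The 3 clade B serpins lie in 1 cluster of 10 clade B genes on chromosome 18 in that assembly, where SERPINB5 is at place 1, SERPINB2 at place 8 and SERPINB8 at place 10.

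The arrays had median intensities between 87.7 and 97 and detected between 16259 and 19814 probes, and arrays of the same group correlated with an r of 0.991 to 0.994. Keratin genes KRT8 and KRT18 were detected on all 12 arrays, whereas CDH1 was detected on the 6 Capan-1 arrays and on no MIA PaCa-2 array. KRT19 and EPCAM were detected on all 6 Capan-1 arrays, at intensities of at least 4693 and 1915.3. In MIA PaCa-2 they were detected on 4 and 2 arrays, at most at 128.2 and 98.8. Of 6 leukocyte and 6 fibroblast marker probes, none was detected on more than 2 arrays. Of the endothelial markers, CDH5 was detected on no array and PECAM1 on 5 Capan-1 and 2 MIA PaCa-2 arrays, at intensities of at most 129.8, and their part in the results was not tested. In these bulk samples, fewer cells that express a gene and less RNA of it per cell cannot be told apart. The brighter PTK2 probe was lower with both FAK hairpins in both lines by limma. The differences on the log2 scale were -2.24 (adjusted p = 1.5e-07) and -2.48 (adjusted p = 5.2e-08) for MIA PaCa-2 with sh1209 and sh1319, and -0.61 (adjusted p = 0.0036) and -1.78 (adjusted p = 5.9e-06) in Capan-1. The third of these calls was lost under median scaling (-0.42, adjusted p = 0.23). The dimmer PTK2 probe, 2680750, passed in none of the 4 comparisons, with differences of 0.31 and -0.29 for MIA PaCa-2 and -0.46 and -0.46 for Capan-1 in the same order. The levels below are log2 intensities after background correction and quantile normalization, each group mean is over 2 arrays, and errors of differences are standard errors (SE).

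**Figure D1:**
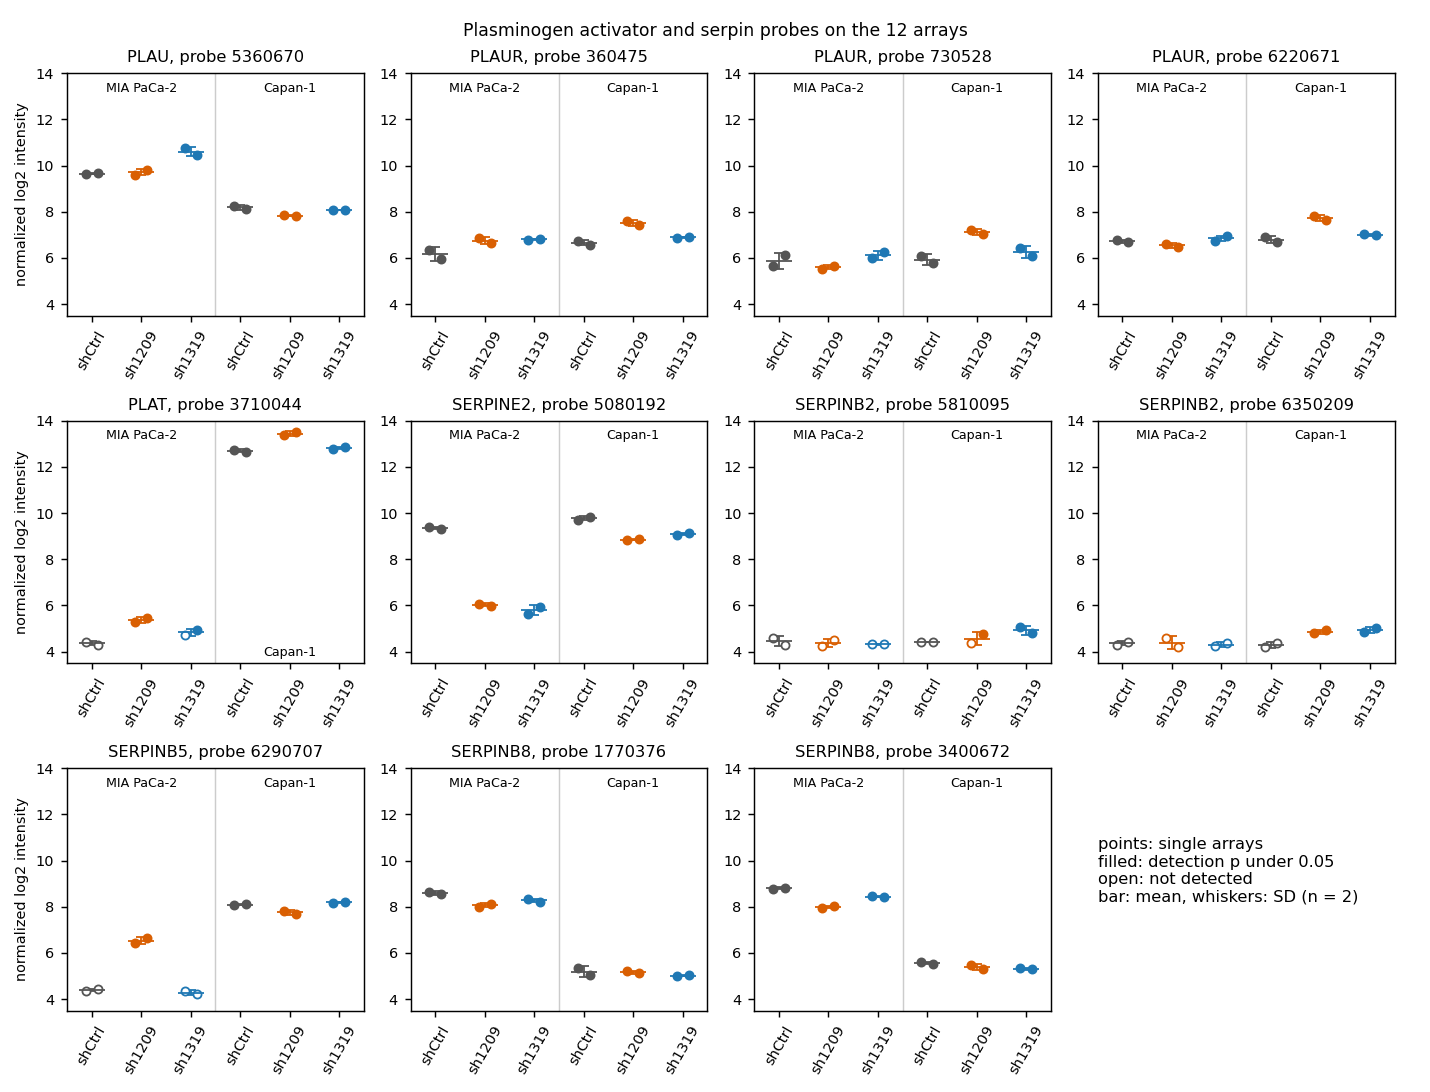
Normalized log2 intensity of each of the 11 probes (y axis) on the 12 arrays, by hairpin (x axis) and cell line. Filled points were detected (detection p under 0.05), open points were not, bars are means and whiskers are SD (n = 2). PLAT lies between 12.65 and 13.52 in Capan-1 and at or under 5.47 in MIA PaCa-2, and SERPINE2 lies between 5.64 and 6.08 in MIA PaCa-2 with both FAK hairpins.

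PLAU, the urokinase protease, was highest in MIA PaCa-2 cells with sh1319. In MIA PaCa-2 the 2 arrays read 9.62 and 9.66 with shCtrl, 9.61 and 9.80 with sh1209, and 10.76 and 10.46 with sh1319. In Capan-1 they read 8.27 and 8.10 with shCtrl, 7.84 and 7.80 with sh1209, and 8.08 and 8.08 with sh1319. Both sh1319 arrays of MIA PaCa-2 were above all other arrays, and the sh1209 arrays overlapped the controls. The difference from control in MIA PaCa-2 was 0.97 ± 0.13 (SE), or 1.96-fold, for sh1319 and 0.06 ± 0.13 for sh1209. In Capan-1 it was -0.36 ± 0.13 with sh1209 and -0.10 ± 0.13 with sh1319. When arrays were scaled by their medians these values were -0.11 and 0.12, so the direction of the latter is not settled. With shCtrl, the PLAU level of MIA PaCa-2 was 2.75-fold that of Capan-1, with no overlap of arrays.

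PLAUR, the membrane-anchored receptor that holds urokinase at the cell surface, was highest in Capan-1 cells with sh1209 by all 3 of its probes. Probe 6220671 read 6.91 and 6.68 with shCtrl, 7.82 and 7.63 with sh1209, and 7.02 and 6.97 with sh1319 in Capan-1. The sh1209 arrays lay above every other array for this probe, and the shCtrl and sh1319 arrays of Capan-1 were within 0.20 of each other on average. The differences with sh1209 in Capan-1 were 0.93 ± 0.13 (SE) for this probe, 0.84 ± 0.15 for probe 360475 and 1.19 ± 0.19 for probe 730528, or 1.91-fold, 1.79-fold and 2.28-fold. Without background correction they were 0.63, 0.55 and 0.66. In Capan-1 with sh1319 the 3 probes differed from control by 0.20, 0.23 and 0.33, in the same order, and by 0.46, 0.48 and 0.58 under median scaling.

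The PLAUR probes disagreed in MIA PaCa-2. There probe 360475 read 6.36 and 5.94 with shCtrl, 6.85 and 6.64 with sh1209, and 6.78 and 6.81 with sh1319, so that both FAK hairpin groups lay above the controls, by 0.60 ± 0.15 and 0.65 ± 0.15 (SE). Probe 6220671 read 6.76 and 6.68 with shCtrl, 6.62 and 6.46 with sh1209, and 6.75 and 6.93 with sh1319, and probe 730528 read 5.63 and 6.12, 5.53 and 5.66, and 5.97 and 6.24. By these probes the differences were -0.18 and -0.28 with sh1209 and 0.12 and 0.23 with sh1319, and neither settles a direction for PLAUR in MIA PaCa-2. Across the 12 arrays, centered on each cell line, probes 730528 and 6220671 correlated with an r of 0.92, and each correlated less with probe 360475, at 0.58 and 0.72. Levels in the control arrays of the 2 lines differed by 0.05 and 0.07 for the first 2 of these probes and by 0.51 for probe 360475, which was lower in MIA PaCa-2.

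PLAT, the tissue-type activator, had the widest gap between the cell lines of the 7 genes. All 6 Capan-1 arrays read between 12.65 and 13.52, with deposited intensities of 5811 to 12709, among them 12.74 and 12.65 with shCtrl, 13.36 and 13.52 with sh1209, and 12.79 and 12.86 with sh1319. In MIA PaCa-2 the shCtrl arrays read 4.42 and 4.31 and neither was detected. With shCtrl the PLAT level of Capan-1 was thus at least 254-fold that of MIA PaCa-2, a lower bound set by the dimmest detected probe of each MIA PaCa-2 array. The bound holds on the background-corrected scale. The difference there was -8.33 (MIA PaCa-2 minus Capan-1), and without background correction it was -6.22. Within Capan-1 the sh1209 arrays lay above the others, by 0.75 ± 0.13 (SE) or 1.68-fold over control, and sh1319 differed from control by 0.13 ± 0.13. In MIA PaCa-2, PLAT was detected on both sh1209 arrays, at 5.28 and 5.47, which was at least 1.59-fold higher than control. With sh1319 it read 4.72 and 4.95, and 1 of the 2 arrays was detected.

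SERPINE2 (protease nexin-1), a secreted inhibitor of thrombin, urokinase and tissue plasminogen activator, was lower with both FAK hairpins in both lines. In MIA PaCa-2 the deposited intensities were 744.5 and 637.3 with shCtrl, 122 and 133.1 with sh1209, and 114.9 and 140.6 with sh1319, and the normalized levels were 9.40 and 9.31, 6.08 and 5.98, and 5.64 and 5.95. In Capan-1 the normalized levels were 9.71 and 9.85 with shCtrl, 8.84 and 8.87 with sh1209, and 9.06 and 9.14 with sh1319. Every FAK hairpin array was below both control arrays of its line, and the probe was detected on all 12 arrays. The difference in MIA PaCa-2 was -3.33 ± 0.13 (SE) with sh1209 and -3.56 ± 0.13 with sh1319, or 10.0-fold and 11.8-fold lower. In Capan-1 it was -0.93 ± 0.13 and -0.68 ± 0.13, or 1.90-fold and 1.60-fold lower. Under median scaling these Capan-1 differences were -0.74 with sh1209 and -0.49 with sh1319, and the call with sh1319 was lost. The 2 hairpins differed by 0.23 in MIA PaCa-2 and by -0.25 in Capan-1 (sh1209 minus sh1319). Without background correction the MIA PaCa-2 differences were -2.40 and -2.50. The FAK hairpin arrays of that line had intensities between 114.9 and 140.6, beside array medians of 87.7 to 97. The mean FAK hairpin difference of MIA PaCa-2 minus that of Capan-1 was -2.64 ± 0.16 on the log2 scale, while the control arrays of the lines differed by -0.43 ± 0.13 (MIA PaCa-2 minus Capan-1).

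SERPINB2 (plasminogen activator inhibitor 2) was close to background throughout. Neither of its probes was detected on any of the 6 MIA PaCa-2 arrays or on either Capan-1 shCtrl array. In Capan-1, probe 6350209 read 4.19 and 4.39 with shCtrl, 4.79 and 4.92 with sh1209, and 4.84 and 5.03 with sh1319, and all 4 FAK hairpin arrays were detected. They lay above the controls, by at least 1.19-fold with sh1209 and at least 1.26-fold with sh1319. Probe 5810095 read 4.43 and 4.41 with shCtrl, 4.36 and 4.77 with sh1209, and 5.06 and 4.79 with sh1319. It overlapped the controls with sh1209 and was at least 1.25-fold higher with sh1319, so the probes differ for sh1209.

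SERPINB5 (maspin) was detected in MIA PaCa-2 with 1 of the 2 FAK hairpins only. It read 4.35 and 4.44 with shCtrl and 4.35 and 4.22 with sh1319, and was not detected on these 4 arrays. With sh1209 it read 6.44 and 6.64 and was detected on both arrays. The sh1209 level was at least 3.56-fold higher than control and at least 3.57-fold higher than with sh1319. In Capan-1 it was detected on all 6 arrays, at 8.09 and 8.11 with shCtrl, 7.83 and 7.68 with sh1209, and 8.17 and 8.22 with sh1319. The sh1209 arrays were the lowest of these, by -0.34 ± 0.12 (SE) from control, and this was -0.09 under median scaling. With shCtrl, the SERPINB5 level of Capan-1 was at least 10.5-fold that of MIA PaCa-2 after background correction. The difference (MIA PaCa-2 minus Capan-1) was -3.70, and -1.93 without that correction.

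SERPINB8, an intracellular serpin, was detected on all 12 arrays and was higher in MIA PaCa-2. In MIA PaCa-2 probe 3400672 read 8.77 and 8.83 with shCtrl, 7.97 and 8.03 with sh1209, and 8.45 and 8.43 with sh1319. The Capan-1 levels, in the same order, were 5.60 and 5.52, 5.47 and 5.30, and 5.35 and 5.29. The groups of MIA PaCa-2 did not overlap, with shCtrl highest and sh1209 lowest. The difference from control was -0.80 ± 0.11 (SE) with sh1209 and -0.36 ± 0.11 with sh1319, and probe 1770376 gave -0.53 ± 0.13 and -0.32 ± 0.13. In Capan-1 the differences of the 2 probes ranged from -0.24 to -0.03, and those with sh1209 turned to 0.03 and 0.13 under median scaling. MIA PaCa-2 exceeded Capan-1 with shCtrl by 9.43-fold for probe 3400672 and 10.6-fold for probe 1770376. These are log2 differences of 3.24 and 3.41, which were 2.11 and 2.07 without background correction. The 2 probes correlated across arrays with an r of 0.997, and of 0.90 after centering on each line. The 2 lines stand in opposite order for SERPINB8 and SERPINB5, which lie at the ends of the chromosome 18 cluster.

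**Figure D2:**
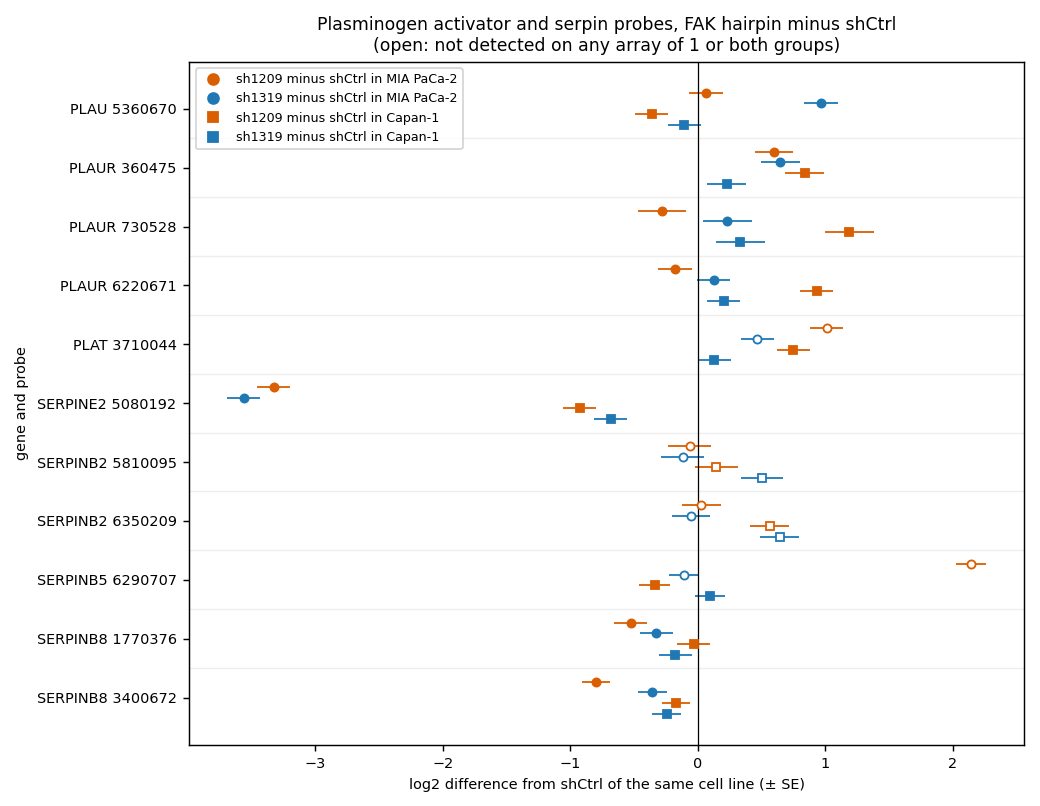
Log2 difference between each FAK hairpin and shCtrl of the same cell line (x axis) for the 11 probes (y axis), with SE from the fit to all 12 arrays. Circles are MIA PaCa-2, squares Capan-1, orange sh1209 and blue sh1319, and open symbols mark comparisons where at least 1 group was not detected on any array. SERPINE2 is left of 0 in all 4 comparisons, and SERPINB5 with sh1209 in MIA PaCa-2 stands farthest to the right.

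In the order of levels, several neighboring groups could not be separated by their arrays. For PLAU these were sh1209 and shCtrl in MIA PaCa-2. For PLAUR probe 6220671 neighboring groups below Capan-1 sh1209 were 0.05 to 0.18 apart, and 2 of these 4 pairs overlapped. For both SERPINB2 probes all neighboring groups without a detected array overlapped. The 6 SERPINE2 groups did not overlap, but the order of sh1209 and sh1319 was opposite in the 2 lines.

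The number of the 11 probes past an adjusted p of 0.05 is given beside the share of all 24207 tested probes, and nothing is read from it because the genes were selected on these signals. It was 6 for sh1209 in MIA PaCa-2 (3 higher, 3 lower), where 18% of all probes passed, and 5 for sh1319 (3 higher, 2 lower), where 24.3% passed. In Capan-1 it was 6 for sh1209 (5 higher, 1 lower) beside 16.8%, and 2 for sh1319 (1 higher, 1 lower) beside 13.7%. Between the 2 FAK hairpins it was 4 in MIA PaCa-2 beside 22.6% and 5 in Capan-1 beside 11.3%. Between the lines with shCtrl it was 7 beside 42.1%, and for the difference between lines in the mean FAK hairpin effect it was 6 beside 14.4%. The median difference of the 11 probes was -0.06, -0.05, 0.15 and 0.13 in the 4 comparisons with control, in the order given, and that of all tested probes was between -0.01 and 0.01. The comparisons of sh1209 and sh1319 share their control arrays.

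The split of calls depended on the scaling. When arrays were scaled by their medians instead of quantile-normalized, the share of all called probes that were higher went from 50.3% to 66.6% for sh1319 in MIA PaCa-2, from 48.4% to 81.7% for sh1209 in Capan-1 and from 50.6% to 85.3% for sh1319 in Capan-1. It went from 50.6% to 34.7% for sh1209 against sh1319 in MIA PaCa-2 and from 50.4% to 31.7% for the difference between lines. The median of all probes moved to 0.11 for sh1319 in Capan-1. The SERPINE2 difference of -0.49 under median scaling remained the lowest of the 11 probes there, but its call was lost.

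As a description over 12 arrays that share cell lines and hairpins, the levels centered on each cell line were compared between genes. Each gene was represented by its brightest probe, which for PLAUR was 6220671. SERPINE2 and SERPINB8 varied together (r = 0.78), and both ran opposite to PLAT (r = -0.71 and -0.80). SERPINB5 ran opposite to SERPINB8 (r = -0.80). PLAU and PLAUR, protease and receptor, had an r of -0.11. Among probes of other genes detected on at least 6 arrays, those with the pattern most like each gene were, in the names on the array, LOC401238, SLC16A9 and LIMS1 for PLAU, LOC341230, MAP3K8 and EDN1 for PLAUR, and ANKRD13A, LOC642590 and SF3B2 for PLAT. For the serpins they were LOC442597, MGC11082 and ACBD7 for SERPINE2, C22ORF13, NEDD9 and ABTB1 for SERPINB2, SNORA5A, C14ORF78 and PCBP4 for SERPINB5, and CUL5, C21ORF45 and LOC651816 for SERPINB8. These correlations lay between 0.92 and 0.98.

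The rest of the system was covered by 43 other genes in 3 lists, of which 24 genes with 31 probes could be tested. These were 13 of 20 genes of plasminogen activation (substrate, inhibitors, binding proteins and clearance receptors), 6 of 10 other clade B serpins and 5 of 13 other serpins. Plasminogen itself (PLG), its activator KLKB1, the clearance receptor LRP1 and vitronectin (VTN) were among the 7 genes of plasminogen activation whose probes did not pass the detection filter. Calls are by limma with Benjamini-Hochberg adjustment over all tested probes, and each count is given beside the share of all tested probes. For sh1209 in MIA PaCa-2, 9 of the 31 probes passed an adjusted p of 0.05 (4 higher, 5 lower), beside 18%. For sh1319 there 9 passed (2 higher, 7 lower), beside 24.3%. In Capan-1, 8 passed for sh1209 (5 higher, 3 lower) beside 16.8%, and 10 for sh1319 (2 higher, 8 lower) beside 13.7%. Between the FAK hairpins 13 probes passed for MIA PaCa-2 beside 22.6%, and 10 for Capan-1 beside 11.3%. Between the lines with shCtrl 21 passed (9 higher in MIA PaCa-2, 12 lower), beside 42.1%. The medians of the 31 probes were 0.01, -0.02, 0.18 and -0.06 in the 4 comparisons with control.

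Genes of the plasminogen activation list differed in their hairpin pattern or between the lines. LRPAP1, the chaperone of the receptors that clear protease and inhibitor complexes, fell with sh1209 in MIA PaCa-2 (log2 difference -1.22 ± 0.16, adjusted p = 0.00033), and with sh1319 it differed by -0.17 ± 0.16. S100A10, which with annexin A2 forms a plasminogen receptor, rose with sh1209 in MIA PaCa-2 by 0.51 ± 0.12 (probe 2490195, adjusted p = 0.0098). It fell with sh1319 there (-0.60 ± 0.12, adjusted p = 0.0025) and with both hairpins in Capan-1, where the differences were -0.37 ± 0.12 with sh1209 (adjusted p = 0.049) and -0.69 ± 0.12 with sh1319 (adjusted p = 0.0023). All 4 calls were lost for this probe under median scaling, and the Capan-1 call with sh1209 was lost when any single array was left out (-0.48 to -0.26). F12, coagulation factor XII, fell with sh1319 in MIA PaCa-2 (-0.69 ± 0.13, adjusted p = 0.0018) and with both hairpins in Capan-1 (-0.64, adjusted p = 0.0051, and -0.89, adjusted p = 0.00086), and under median scaling the sh1319 call in MIA PaCa-2 and the sh1209 call in Capan-1 were lost. The transmembrane protease ST14 (matriptase) was not detected in MIA PaCa-2 and was at least 11.8-fold higher in Capan-1 (adjusted p = 2.7e-09), the same order of lines as PLAT.

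Among the other clade B serpins, SERPINB1, an inhibitor of neutrophil proteases, fell in MIA PaCa-2, with differences of -0.85 ± 0.12 for sh1209 (adjusted p = 0.00045) and -1.76 ± 0.12 for sh1319 (adjusted p = 9.3e-07). SERPINB9, the inhibitor of granzyme B, rose with sh1209 in MIA PaCa-2 by 1.31 ± 0.17 (adjusted p = 0.0003) and, like SERPINB5, was higher there than with sh1319, by at least 2.46-fold (adjusted p = 3.8e-05). This SERPINB9 probe, 1230156, was detected on only 3 MIA PaCa-2 and 2 Capan-1 arrays, so several of its values lie at background. The other SERPINB9 probe, 1980154, was detected on no array and not tested. SERPINB7 was not detected in MIA PaCa-2 or in the Capan-1 controls. With sh1209 in Capan-1 it rose by at least 1.64-fold (probe 450463, adjusted p = 0.0007) and at least 2.97-fold (probe 7200243, adjusted p = 4.7e-05). In the chromosome 18 cluster SERPINB7 lies next to SERPINB2, which read higher in the same Capan-1 cells by probe 6350209. Of the other 6 genes of that cluster, SERPINB3 was detected on 4 and SERPINB4 on 3 Capan-1 arrays, SERPINB13 on 1, and SERPINB10, SERPINB11 and SERPINB12 on none. In MIA PaCa-2 none of the 6 was detected, except SERPINB10 on 1 array.

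SERPINA3, alpha-1-antichymotrypsin, averaged 12.80 in the MIA PaCa-2 controls and 5.45 in those of Capan-1 (adjusted p = 1.1e-12). It fell with sh1209 and sh1319 in MIA PaCa-2, with differences of -3.08 ± 0.12 (adjusted p = 1.6e-08) and -2.31 ± 0.12 (adjusted p = 1.1e-07), as SERPINE2 was lower there. In Capan-1 it rose with sh1209 by 2.79 ± 0.12 (adjusted p = 3.7e-08) and fell with sh1319 (-0.65 ± 0.12, adjusted p = 0.0037), and the latter call was lost under median scaling. SERPINA5, the protein C inhibitor, which also inhibits urokinase, was not detected in MIA PaCa-2. It rose with sh1209 in Capan-1 by 1.26 ± 0.14 (adjusted p = 0.00014) and fell with sh1319 there (-0.57 ± 0.14, adjusted p = 0.022). The latter call was lost under median scaling (-0.30), in a fit of Capan-1 alone (-0.55) and without Capan-1 sh1319 replicate 1 (-0.47) or shCtrl replicate 2 (-0.39). SERPINA1, alpha-1-antitrypsin, had a control level in Capan-1 at least 4.80-fold that of MIA PaCa-2 by its brighter probe (adjusted p = 4.6e-09). It fell with sh1319 in Capan-1 (-0.88 ± 0.11, adjusted p = 0.00031), a call that was lost under median scaling (-0.59). SERPINF1, a secreted serpin that does not inhibit proteases, had a control level in MIA PaCa-2 at least 5.01-fold that of Capan-1 (adjusted p = 6.3e-09) and did not pass the test with either hairpin.

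**Figure D3:**
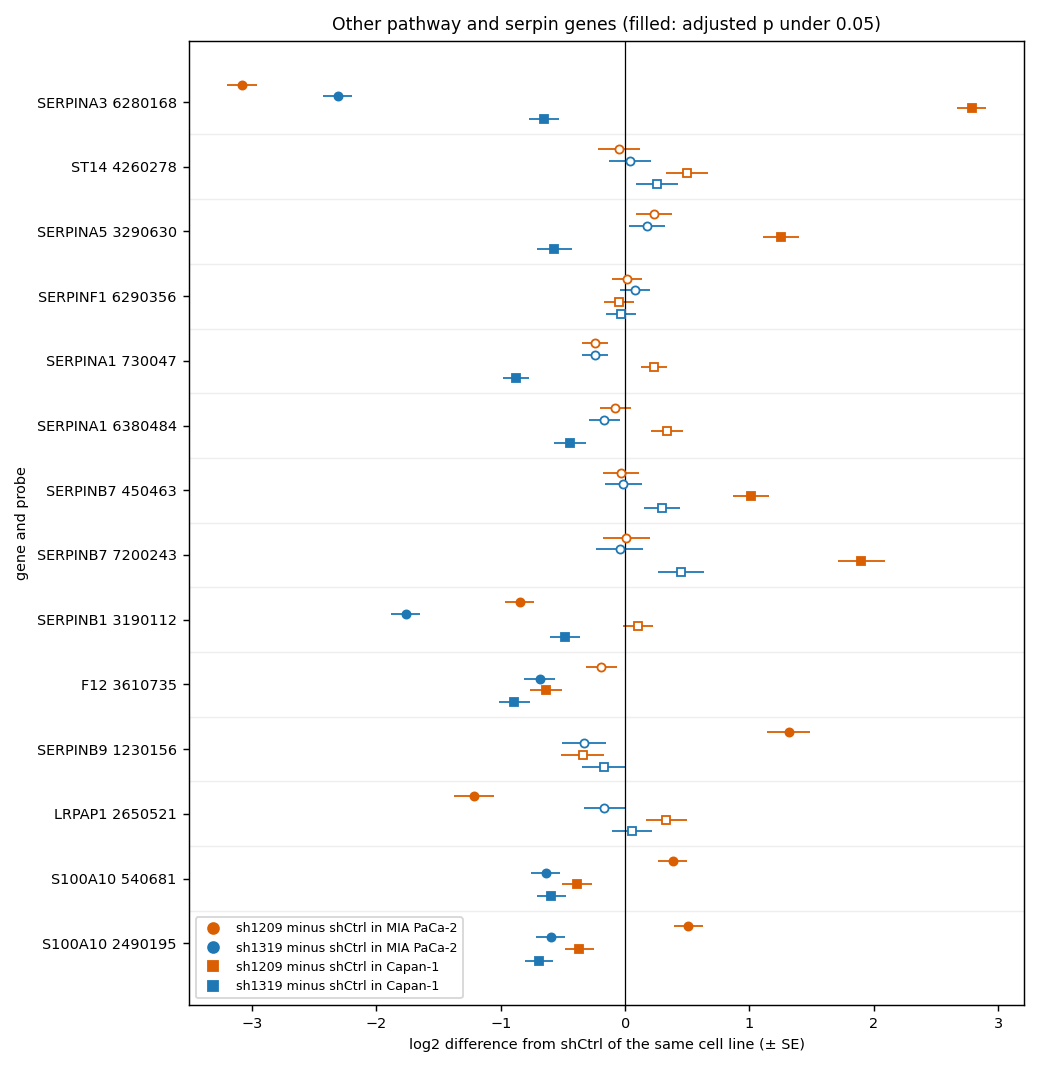
Log2 difference from shCtrl of the same line (x axis, ± SE) for 11 other named genes of the plasminogen system and serpin family, by probe (y axis). Circles are MIA PaCa-2, squares Capan-1, orange sh1209 and blue sh1319, and filled symbols passed an adjusted p of 0.05. SERPINA3 spans the widest range, from -3.08 to 2.79.

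With the control hairpin, the direction of the cell line difference was thus not shared by the activators or by the serpins. PLAU and SERPINB8 were higher in MIA PaCa-2, and PLAT and SERPINB5 in Capan-1. PLAUR probes 730528 and 6220671 and both SERPINB2 probes differed by less than 0.08, but SERPINB2 was not detected in the controls of either line. PLAUR probe 360475 differed by -0.51 (MIA PaCa-2 minus Capan-1). SERPINE2 was 1.34-fold lower in MIA PaCa-2.

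**Figure D4:**
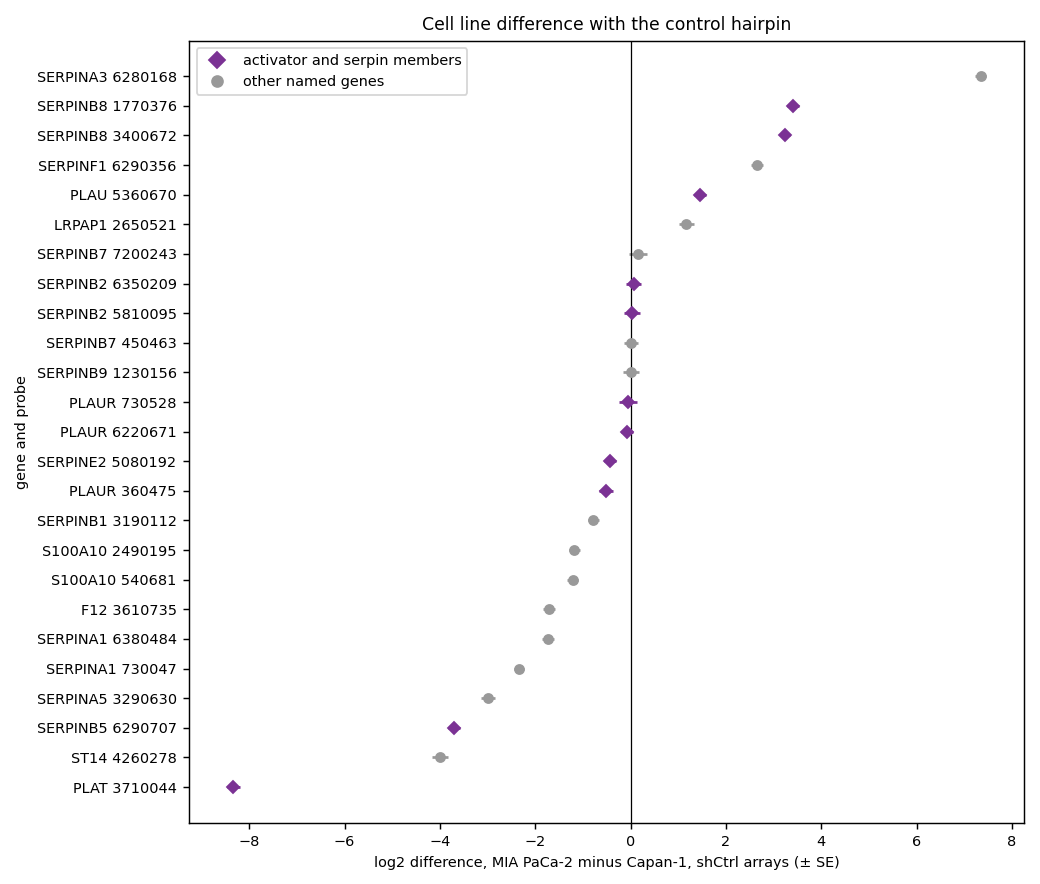
Log2 difference between MIA PaCa-2 and Capan-1 with shCtrl (x axis, ± SE) for the 11 probes of the 7 genes (diamonds) and the probes of 11 other named genes (circles), ordered by value (y axis). PLAT stands at -8.33 and SERPINA3 at 7.35, where PLAT was not detected in the MIA PaCa-2 controls, so its value rests on the background level there.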

How the data were processed

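Total RNA (500 ng per sample, per the labels) was hybridized to Illumina HumanHT-12 arrays. The authors deposited non-normalized average signal intensity for each probe and array, with a detection p-value against the negative controls, exported from GenomeStudio 2011.1 (per the submitters' processing notes). Of its 47320 rows, 92 spike-in controls were left out, 28 of its columns hold no values, and 54 gene names are dates. Further array pre-processing steps are not given in the sources used here.

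The background was corrected with limma 3.58.1 (R 4.3.3), by nec with an offset of 16, followed by quantile normalization of log2 values. The 24207 of 47228 probes that had a detection p under 0.05 on at least 2 of 12 arrays were tested. A limma model of the 6 group means left 6 residual degrees of freedom. Benjamini-Hochberg adjustment covered all tested probes of a comparison. The difference between lines in the mean FAK hairpin effect is MIA PaCa-2 minus Capan-1. Where a group was not detected on any of its arrays, a fold is a lower bound, the mean of the brighter group against, per array, the higher of the lowest signal among detected probes and the dim probe's own signal. The number of arrays limits the precision. The fit was tested on simulated data.

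The 7 genes, the lists and the motifs were chosen with earlier results of these data known. All 7 genes were named, and of the 43 others the 12 with the largest difference of at least 1 (log2) past the threshold, together with the 3 probes most correlated with each gene. Of those 12, 1 is not reported here, although the counts over the list include it. Alternatives were median scaling, no background correction, a stricter filter (detection p under 0.01 on at least 6 arrays) or none, the replicate block, array weights, 1 cell line alone, the methods' t-test and each array left out in turn. Same-numbered replicates did not deviate together (correlations from -0.06 to 0.16 over 15 pairs of groups).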

Additional observations from a re-analysis of the deposited data

Results flagged for a closer look

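Some differences from control ran in opposite directions in the 2 lines, with both arrays of the hairpin on the same side of both controls in each line. These differences between lines were not tested, because the genes were selected on these signals. PLAU with sh1319 was 0.97 for MIA PaCa-2 and -0.10 for Capan-1 (a gap of 1.07), and the Capan-1 value turned to 0.12 under median scaling. PLAUR probe 6220671 with sh1209 was -0.18 and 0.93 (a gap of -1.11). The other PLAUR probes did not show this reversal. With sh1209, probe 360475 was higher in both lines (0.60 and 0.84), and probe 730528 (-0.28 and 1.19) overlapped the controls in MIA PaCa-2. SERPINB5 with sh1209 was 2.15 and -0.34 (a gap of 2.48). The MIA PaCa-2 controls were not detected, and the value of that line was 0.87 without background correction. The Capan-1 value was -0.09 under median scaling. With sh1319, SERPINB5 was -0.11 and 0.10 (a gap of -0.20), where the probe was not detected in either MIA PaCa-2 group.

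Among the other genes, the mean FAK hairpin effect differed between MIA PaCa-2 and Capan-1 by limma's interaction term for 9 of the 31 probes (2 higher, 7 lower), beside 14.4% of all tested probes. Values follow for the 7 of these probes that belong to the genes named here. The difference was -3.76 for SERPINA3 (adjusted p = 3.6e-08), with a mean of -2.70 for MIA PaCa-2 and 1.07 for Capan-1. It was -1.12 for SERPINB1 (adjusted p = 0.00039) and -0.88 for LRPAP1 (adjusted p = 0.012). For SERPINB7 it was -1.19 (probe 7200243) and -0.67 (probe 450463), given without a p-value. SERPINB7 was not detected in MIA PaCa-2, and its probes passed the detection filter only through FAK hairpin arrays of Capan-1. The difference was 0.75 for SERPINB9 (adjusted p = 0.037) and 0.49 for S100A10 (probe 2490195, adjusted p = 0.04). The brighter S100A10 probe, 540681, did not pass for this difference in the main run. Under median scaling the calls of S100A10 (0.42, adjusted p = 0.41), SERPINB7 probe 450463 (-0.79) and SERPINB9 (0.70, adjusted p = 0.1) were lost. That of SERPINB9 was also lost without a detection filter (0.75, adjusted p = 0.06). Leaving out 1 array ended some of these calls. For LRPAP1 this was MIA PaCa-2 shCtrl replicate 2 (-0.82) or Capan-1 shCtrl replicate 2 (-0.65). For SERPINB7 probe 450463 it was any shCtrl array or Capan-1 sh1209 replicate 2 (-0.75 to -0.60). For S100A10 it was any array but Capan-1 sh1209 replicate 2 (0.42 to 0.54), and for SERPINB9 any but Capan-1 shCtrl replicate 1 and sh1319 replicate 2 (0.47 to 0.86). The 2 hairpins had opposite signs for SERPINA3 in Capan-1, for S100A10 in MIA PaCa-2, for SERPINB9 in MIA PaCa-2 (1.31 and -0.33) and for SERPINB1 in Capan-1 (0.10 and -0.48). SERPINB9 was not detected with sh1319 in MIA PaCa-2, and its -0.33 did not pass the threshold. Nor did the 0.10 of SERPINB1, and its call at -0.48 was lost under median scaling (-0.30) and in a fit of Capan-1 alone (-0.47). For these 2 genes a reversal between hairpins is therefore not settled.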

How the results depend on the processing

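No difference past the threshold changed sign under any alternative run. Without background correction, the differences of low probes shrank, as for SERPINB5 with sh1209 in MIA PaCa-2 (2.15 to 0.87) and PLAT there (1.01 to 0.34). Median scaling lowered the number of the 11 activator and serpin probes called to 3 for sh1319 in MIA PaCa-2 (15.9% of all probes under that scaling), 1 for sh1319 in Capan-1 (9.38%), 1 between the hairpins in Capan-1 (5.03%) and 3 for the difference between lines (7.58%). For the 31 other probes it gave 5 (sh1209, beside 10.2%) and 3 (sh1319) in Capan-1 and 5 for the difference between lines, and PTK2 with sh1209 in Capan-1 was -0.42 (adjusted p = 0.23). The stricter filter kept 9 of the 11 probes and left 1 call among them for sh1319 in Capan-1. The other call of the main run there, SERPINB2 probe 6350209, was dropped by that filter and not tested. A fit of 1 cell line alone gave 5 and 6 calls among the 31 for the 2 hairpins of Capan-1. For the stricter filter and for 1 line alone the share of all probes called was not computed. The replicate block moved no count by over 1.5 times, and the PTK2 difference stayed at -2.24 for sh1209 in MIA PaCa-2. Under the block the calls of S100A10 probe 2490195 with sh1209 (-0.37) and SERPINA1 probe 6380484 with sh1319 (-0.44), both in Capan-1, were lost. The methods' t-test gave 0 calls after Benjamini-Hochberg adjustment in all 6 hairpin comparisons, for both sets of probes. Over all tested probes it gave at most 4 calls in any of these. At an unadjusted p under 0.05 it gave 3 to 7 of the 11 and 9 to 13 of the 31, beside 16.5% to 23.3% of all probes, and between the lines 5 and 11 passed after adjustment. By that test PTK2 was -2.24, -2.48, -0.61 and -1.78, none past the threshold. The cause of these changes was not tested.

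With each array left out in turn, the counts among the 11 probes ranged from 4 to 6 for sh1209 and 2 to 5 for sh1319 in MIA PaCa-2, 5 to 6 and 1 to 2 in Capan-1, 2 to 5 between hairpins in either line, 5 to 7 between lines and 3 to 5 for the difference between lines. Among the 31 they ranged from 6 to 10, 9 to 10, 5 to 7 and 5 to 10 with the hairpins in the same order, 12 to 13 and 7 to 10 between hairpins, 17 to 20 between lines and 4 to 7 for the difference between lines. The share of all tested probes called with an array left out was not computed, so nothing about these genes is read from these counts. The PTK2 differences ranged from -2.30 to -2.17, -2.52 to -2.41, -0.70 to -0.52 and -1.87 to -1.69. Counts among the 11 moved by over 1.5 times without MIA PaCa-2 shCtrl replicate 2 (2) or sh1319 replicate 2 (3) for sh1319 in MIA PaCa-2, and without Capan-1 shCtrl replicate 1 or sh1319 replicate 2 (1 each) for sh1319 in Capan-1. Between hairpins they did so without MIA PaCa-2 sh1319 replicate 1 (2), and without either Capan-1 array of sh1209 or sh1319 (2 each). The difference between lines fell to 3 without MIA PaCa-2 shCtrl replicate 2, sh1209 replicate 2 or sh1319 replicate 1, or Capan-1 shCtrl replicate 2, sh1209 replicate 1 or sh1319 replicate 1. Among the 31, sh1209 in Capan-1 fell to 5 without Capan-1 shCtrl replicate 2 or sh1209 replicate 2. For sh1319 there the count was 5 without either Capan-1 shCtrl array and 6 without sh1319 replicate 1. The difference between lines was 5 without MIA PaCa-2 shCtrl replicate 1 and 4 without MIA PaCa-2 or Capan-1 shCtrl replicate 2.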
